A study of Mus musculus with 19 samples.

Results

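Liver tumors labelled MYC_Twist1_OFF were compared with liver tumors labelled MYC_OFF in the mouse by RNA sequencing, with 3 libraries in each group. The genes described are those whose symbol is not a bare number and whose deposited value reached 1 in at least 3 of these 6 libraries, which was 11866 of the 19486 genes in the table. The series holds 19 libraries in 5 groups, and the others used here are 5 labelled MYC_Twist1_HCC, 5 labelled MYC_HCC and 3 labelled MYC_Recur. Per the labels every library came from total RNA of a flash-frozen liver tumor described as hepatocellular carcinoma, the cancer that arises from hepatocytes. MYC is part of the name of every group, and Twist1 of MYC_Twist1_OFF and MYC_Twist1_HCC. The labels state no strain, allele, promoter, drug, time, age or number of animals, so OFF is used only as the label gives it. Both OFF groups were newly sequenced, while both HCC groups were re-analysed from an earlier deposit. Whether each of the 3 libraries stands for its own animal is not stated. The p-values of the main fit therefore measure only spread between libraries, taken within the 5 groups of all 19.

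MYC is a transcription factor that pairs with MAX and drives genes of ribosome assembly, metabolism and the cell cycle, and its overexpression in mouse hepatocytes gives rise to liver cancer. TWIST1 is a transcription factor of the mesoderm that lowers epithelial adhesion genes and raises mesenchymal ones, the change known as the epithelial to mesenchymal transition. Both proteins bind short DNA elements called E boxes. In mouse models in which a MYC transgene of hepatocytes can be shut off, the tumors are known to regress.

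Of the genes in the labels, Myc was not called and Twist1 was hardly detected. Myc stood at 32.6, 40.9 and 45.7 in MYC_Twist1_OFF and at 59.8, 33.9 and 43.4 in MYC_OFF, in the deposited normalized unit that all values below share. The ranges overlapped, and the log2 fold change was -0.17 with a 95% interval of -0.63 to 0.28. Twist1 was at 0.02, 0.04 and 0 in MYC_Twist1_OFF and at 0.06, 0 and 0 in MYC_OFF, below the level required for testing. It was also at most 0.12 in MYC_Twist1_HCC and at most 0.27 in MYC_HCC, so the deposited Twist1 row does not set the libraries labelled Twist1 apart. No source used here says whether that row counts transcripts of a transgene. Of 10 hepatocyte markers 9 were tested. Among them Alb, the serum protein albumin, stood at 279.6, 241 and 281 in MYC_Twist1_OFF and at 411, 298 and 255 in MYC_OFF.

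Of the 11866 genes tested, 1 passed (0.00843%). Mllt1 fell in MYC_Twist1_OFF, and no gene rose. Mllt1 encodes ENL, a chromatin protein whose YEATS domain reads acetylated histones and which belongs to the super elongation complex. It lies on chromosome 17 from 56892611 to 56935415 on the minus strand of mm10 (GRCm38), where GENCODE annotates it as a protein-coding gene. The 250 bases before its start in RefSeq (GRCm38.p6, chr17:56935389-56935638, minus strand) are shown. GENCODE places the start further upstream, at 56935415, so the last bases of the window lie inside the GENCODE gene. The window is given because Mllt1 is the single called gene and E boxes are what MYC and TWIST1 bind. Capitals mark the match to CCAAT, read on the opposite strand as ATTGG, and all other letters are in lower case.
Mllt1 promoter: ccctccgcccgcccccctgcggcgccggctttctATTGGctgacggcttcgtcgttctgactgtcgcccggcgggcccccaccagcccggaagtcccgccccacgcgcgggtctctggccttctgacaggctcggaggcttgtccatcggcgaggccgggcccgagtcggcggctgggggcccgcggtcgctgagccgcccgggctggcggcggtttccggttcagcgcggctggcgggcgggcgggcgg
G and C made up 77.6% of these bases. CACGTG, the E box that MYC prefers, was not in the window and was in 6.02% of 32851 promoter windows of the same length. CANNTG, the general E box, which includes CACGTG, was not in the window either and was in 66.2% of the windows. CCAAT on either strand, the element of the factor NF-Y, was in 33.8% of the windows. These are matches of letters in 1 window, not binding sites.

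Mllt1 had values of 0, 5.76 and 0 in MYC_Twist1_OFF, against 187, 61.7 and 361 in MYC_OFF. The lowest MYC_OFF library was above the highest MYC_Twist1_OFF library, and both groups varied widely within themselves. On the log2(value + 1) scale the fold change was -6.42 (SE 0.85, 95% interval -8.21 to -4.64), with an adjusted p of 0.0063 by limma over all genes tested. Its size and its call depend on the pseudocount, and 2 of the 3 values in MYC_Twist1_OFF are listed at 0. An exact 0 in this table need not mean an absent transcript. Rpl19, a ribosomal protein gene that every cell uses, was listed at 0 in MYC_Twist1_OFF 3 and at 660 and 376 in MYC_Twist1_OFF 1 and 2, against 1296, 548 and 644 in MYC_OFF. An exact two-sided permutation test of Mllt1 alone gave p = 0.1, the smallest that 3 against 3 libraries can give.

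The call of Mllt1 was lost under 5 alternatives. With the spread of the 2 OFF groups alone, in place of that of 19 libraries, its adjusted p by limma was 0.654 and no gene was called. It was 0.224 with a pseudocount of 0.1, 0.275 with array weights and 0.0871 without MYC_Twist1_OFF 3. With the replicate number as a block in the 2 OFF groups alone it was 0.0834, against 0.654 there without the block. The other groups give values from libraries that this comparison does not use. Mllt1 was listed at 6.35, 0, 0, 0 and 0 in MYC_Twist1_HCC, against 11.3, 3.52, 2.21, 11.3 and 13.9 in MYC_HCC, and at 70.2, 62.8 and 45.8 in MYC_Recur. Of the 8 libraries labelled Twist1, 6 were at 0 and none was above 6.35, while the 11 others ran between 2.21 and 361 and 2 of them lay under 6.35. In the HCC groups, which share no library with the OFF groups, Mllt1 also fell in the Twist1-labelled tumors (log2 fold change -2.42, SE 0.66, adjusted p = 0.0383 by limma). It was the 1 gene called in both contrasts. The OFF and HCC differences of Mllt1 were 4 apart on the log2 scale (SE 1.08, adjusted p = 0.337 by limma), which did not pass the test of a difference.

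The nearest tested gene on one side of Mllt1 was also lower without passing. Rfx2, a winged-helix transcription factor of cilia genes, ends 61.6 kb from Mllt1 and was at 1.19, 0.09 and 0.18 in MYC_Twist1_OFF, against 1.71, 16.7 and 8.83 in MYC_OFF. The ranges did not overlap, but the gap between MYC_Twist1_OFF 1 and MYC_OFF 1 was small. Its log2 fold change was -2.46 (95% interval -3.63 to -1.29) and its adjusted p by limma was 0.950, so it did not pass, although it was called without MYC_OFF 1 (adjusted p = 0.0391). Of 25 protein-coding genes within 250 kb of Mllt1, 11 others were tested, and Rfx2 was the 1 with an unadjusted p under 0.05. The other 10 had log2 fold changes between -0.39 and 0.49. On the other side, Clpp, a mitochondrial protease subunit 54.9 kb from Mllt1, stood at 22.8, 27.5 and 24.6 in MYC_Twist1_OFF and at 39.5, 24.3 and 18.1 in MYC_OFF. This window was examined after the values of Mllt1 and Rfx2 were seen.

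**Figure D1:**
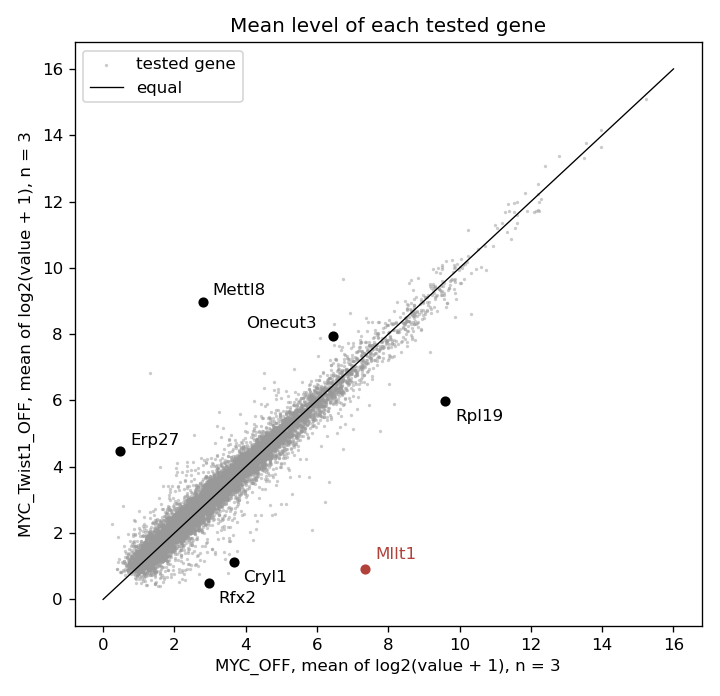
Mean of log2(value + 1) of each tested gene (points) in MYC_Twist1_OFF (vertical axis) against MYC_OFF (horizontal axis), 3 libraries each, with the line of equal means. Mllt1 (red) is the called gene. The named black points did not pass the test, and Rpl19 is far from the line through the single library listed at 0.

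Across all genes, the call of Mllt1 made up 0.00843% of the 11866 tested. An unadjusted p under 0.05 was found for 300 genes (2.53%), with 153 of them higher (1.29%) and 147 lower (1.24%) in MYC_Twist1_OFF. The libraries of both groups did not overlap for 484 genes (4.08%), with 245 higher (2.06%) and 239 lower (2.01%). Chance gives no overlap for about 10% of genes with 3 libraries against 3, so 4.08% is no excess. The 2.53% likewise lies under the share of 0.05 that its threshold gives by chance. The second-smallest adjusted p was 0.950. The number called was 2 without MYC_OFF 1, MYC_OFF 2 or MYC_Twist1_OFF 1, 17 without MYC_OFF 3 and 0 without MYC_Twist1_OFF 3. Of the 17, 2 were higher and 15 lower, and Mllt1 was among them.

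The data bound most differences rather than measure them. The median standard error of a log2 fold change was 0.33, and the median half-width of its 95% interval was 0.69. For 6943 genes (58.5%) the interval lay within 1 of 0 on the log2(value + 1) scale. A difference of 2-fold or more in value + 1 lay outside it. For genes of low value this need not leave out a 2-fold difference in the value itself. For the other genes the libraries do not bound a difference of that size. The log2 fold change had a size of at least 2, or 4-fold in value + 1, for 35 genes (0.295%), against 120 (1.01%) between MYC_Twist1_HCC and MYC_HCC.

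The 6 libraries did not group by label. The closest library to MYC_Twist1_OFF 1 was MYC_OFF 1 (Pearson's r = 0.951 over tested genes), and the closest to MYC_Twist1_OFF 3 was MYC_OFF 3 (r = 0.935). MYC_OFF 2 was closest to MYC_Twist1_OFF 3 (r = 0.926). Only MYC_Twist1_OFF 2 had its closest library in its own group, MYC_Twist1_OFF 1 (r = 0.912). Pairs within MYC_Twist1_OFF had r of 0.908 to 0.924, pairs within MYC_OFF 0.859 to 0.898, and the 9 pairs between the groups 0.872 to 0.951. These correlations are across genes and carry no test. Values summed to 507868 to 591368 per MYC_Twist1_OFF library and to 563456 to 600407 per MYC_OFF library, and sequencing depth is unknown.

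**Figure D2:**
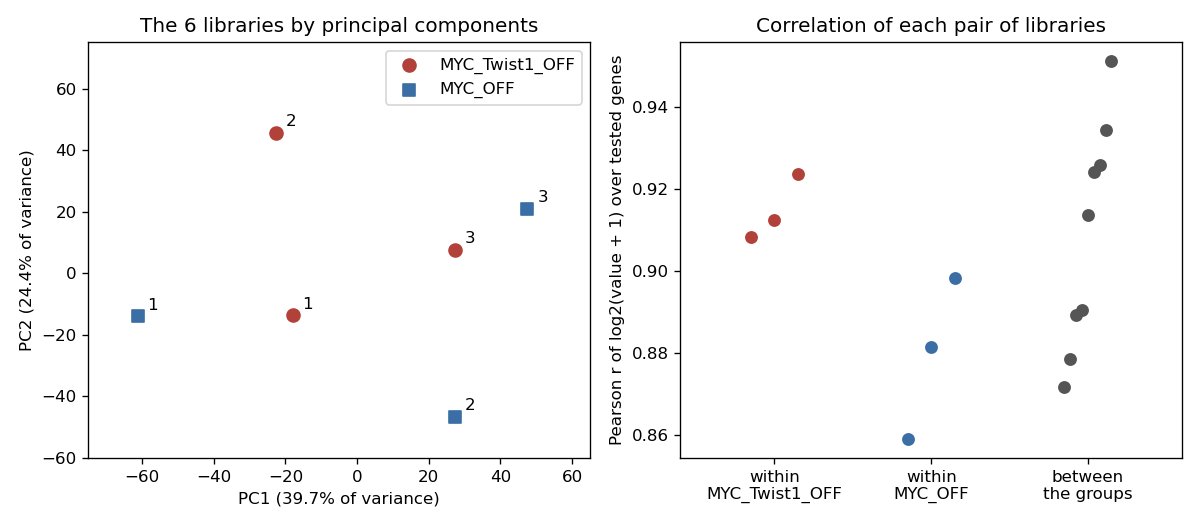
Left, the 6 libraries on the first 2 principal components (39.7% and 24.4% of the variance), numbered by replicate. Right, Pearson's r of log2(value + 1) for each pair of libraries, within MYC_Twist1_OFF, within MYC_OFF and between them. The between-group pairs reach 0.951, above every within-group pair.

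Single libraries held many of the extreme values. In MYC_Twist1_OFF 2, 65 genes stood at least 4-fold above all 5 other libraries in value + 1, and in MYC_OFF 2 there were 36. The number was 1 to 12 in the other 4 libraries. In MYC_Twist1_OFF 2, Vma21, an assembly factor of the proton pump of lysosomes, stood at 454 and Yif1a, a protein of transport between endoplasmic reticulum and Golgi, at 582, while the 5 others were at most 12.8 and 17.1. In MYC_OFF 2 the small nuclear RNA symbol Rnu6 stood at 4675 and the deubiquitinase-family gene Usp53 at 1292, against at most 301 and 86.0 elsewhere. Fosl1, an AP-1 subunit, was at 1705 in MYC_Twist1_OFF 1 and at most 71.8 in the others, and Acsl3, which activates long-chain fatty acids, was at 0.6 in MYC_OFF 3 and at 538 or more in the others. The range of value + 1 over 3 libraries was at least 4-fold for 547 genes in MYC_Twist1_OFF and for 1185 genes in MYC_OFF. The median range on the log2 scale was 0.63 in MYC_Twist1_OFF and 0.83 in MYC_OFF. The median size of the difference between the group means was 0.20. A range over single libraries and a difference of means are unlike measures, so their sizes cannot be compared.

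Beyond Mllt1, the largest differences without overlap are given as values that did not pass the test. They are the 15 highest and 15 lowest log2 fold changes among genes with a mean of at least 5 in one group and no predicted or clone symbol. On the higher side they ran from 1.36 to 6.18 with adjusted p by limma of 0.950 or more. The highest library was MYC_Twist1_OFF 2 for 11 of these 15, and MYC_Twist1_OFF 1 and 3 for 2 each. On the lower side the log2 fold changes ran from -6.42 to -1.20, and the highest library was MYC_OFF 3 for 9 genes, MYC_OFF 2 for 6 and MYC_OFF 1 for none. Choosing genes without overlap fixes the direction in every library, so agreement over libraries adds nothing here.

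Transcription factors and chromatin proteins were among them on both sides. Onecut3, a homeodomain factor, stood at 255, 324 and 179 in MYC_Twist1_OFF, against 64.3, 94.3 and 104 in MYC_OFF (log2 fold change 1.51). No single library carried this difference. Nfatc1, a factor activated by calcineurin, stood at 17.8, 62.1 and 14.5 in MYC_Twist1_OFF, against 11.3, 8.78 and 4.58 in MYC_OFF, with MYC_Twist1_OFF 2 far above the rest. Gtf2e2, a subunit of the general factor TFIIE, stood at 8.79, 8.87 and 2.78 in MYC_Twist1_OFF, against 11.5, 34.2 and 38.4 in MYC_OFF (log2 fold change -1.86). MYC_OFF 2 and 3 lay well above the MYC_Twist1_OFF libraries, and MYC_OFF 1 only slightly. Gatad2b, a subunit of the NuRD chromatin complex, stood at 4.45, 1.26 and 0.58 in MYC_Twist1_OFF, against 5.61, 18 and 8.24 in MYC_OFF.

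Enzymes and proteins of the endoplasmic reticulum and mitochondria formed another part. Mettl8, which methylates mitochondrial transfer RNA, stood at 492, 287 and 906 in MYC_Twist1_OFF, against 0.9, 0.39 and 126 in MYC_OFF. Its log2 fold change of 6.18 had a standard error of 2.09, because values also spread in other groups: in MYC_Twist1_HCC they ran from 2.13 to 2170. Erp27, a protein of the disulfide isomerase family, stood at 43.7, 12.4 and 17 in MYC_Twist1_OFF and at 0, 1.73 and 0 in MYC_OFF. C1qbp, a mitochondrial matrix protein needed for translation there, stood at 384, 510.4 and 307 in MYC_Twist1_OFF, against 721, 768 and 3719 in MYC_OFF, where MYC_OFF 3 was far above the rest. Cryl1, a dehydrogenase of sugar metabolism, stood at 2.25, 1.27 and 0.37 in MYC_Twist1_OFF, against 5.09, 4.74 and 56.9 in MYC_OFF, again with MYC_OFF 3 far above.

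Signalling, cytoskeleton and membrane genes made up most of the rest. Tmem229a, a multi-pass membrane protein, stood at 10.7, 7.95 and 6.99 in MYC_Twist1_OFF, against 3.03, 3.01 and 2.10 in MYC_OFF, with little spread in either group (log2 fold change 1.36, SE 0.30). It did not pass with a pseudocount of 1 and was called with a pseudocount of 5 (adjusted p = 0.0123 by limma). Glt28d2, a glycosyltransferase-domain gene, stood at 26.5, 32.7 and 28.1 in MYC_Twist1_OFF, against 8.77, 14.2 and 5.61 in MYC_OFF. Kif17, a kinesin motor, stood at 1.83, 23.8 and 3.92 in MYC_Twist1_OFF, against 0.79, 0.60 and 0.09 in MYC_OFF. Kif17 was under 1 in every MYC_OFF library and met the required level only through MYC_Twist1_OFF. That filter thus fixed its lack of overlap. Ajuba, a LIM-domain scaffold of cell junctions, stood at 10.5, 43.3 and 6.22 in MYC_Twist1_OFF, against 5.02, 2.16 and 2.62 in MYC_OFF. For Kif17 and Ajuba, and likewise for the kinesin Kif13b and the semaphorin Sema6a, MYC_Twist1_OFF 2 stood far above the other libraries. Sparcl1, a secreted matricellular protein, stood at 5.94, 4.67 and 4.10 in MYC_Twist1_OFF, against 14, 11.1 and 17.3 in MYC_OFF. Pak2, a kinase activated by Rac and Cdc42, stood at 7.32, 2.59 and 7.43 in MYC_Twist1_OFF, against 9.20, 8.17 and 31.7 in MYC_OFF, where 2 of the 3 values were close to those of MYC_Twist1_OFF.

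TMEM2 and Heatr5b carried the same values in all 6 libraries, 2.48, 0.78 and 2.71 in MYC_Twist1_OFF and 7.91, 12 and 3.87 in MYC_OFF, so they cannot be told apart, although the counts over the 15 lower genes hold both. In all, 7 tested symbols had a row identical to that of another tested symbol. Bbs7, a subunit of the BBSome that carries proteins into cilia, stood at 17.5, 13.9 and 19.5 in MYC_Twist1_OFF, against 7.50, 6.11 and 1.26 in MYC_OFF. Cpa3, the carboxypeptidase of mast cells, stood at 5.07, 27.4 and 6.25 in MYC_Twist1_OFF, against 1.74, 3.36 and 2.70 in MYC_OFF. Cpa3, the scaffold gene Mpp3 and the cytochrome P450 gene Cyp2d12 were highest in MYC_Twist1_OFF 2, while Bbs7 was even among the MYC_Twist1_OFF libraries. On the lower side, Crhbp, a binding protein of corticotropin-releasing hormone, was listed at 0 in MYC_Twist1_OFF 1 and stood at 14.7 and 11.6 in MYC_Twist1_OFF 2 and 3, against 18.5, 20.7 and 42.9 in MYC_OFF. Tiam2, an exchange factor of Rac, stood at 2.92, 1.86 and 1.48 in MYC_Twist1_OFF, against 6.53, 3.55 and 9.94 in MYC_OFF. Rassf8 and Calr3, a calreticulin of the testis, had their highest value in MYC_OFF 2, at 388 and 17.9, and their highest MYC_Twist1_OFF value, 62.2 and 4.76, lay just under MYC_OFF 1 at 63.0 and 5.03.

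**Figure D3:**
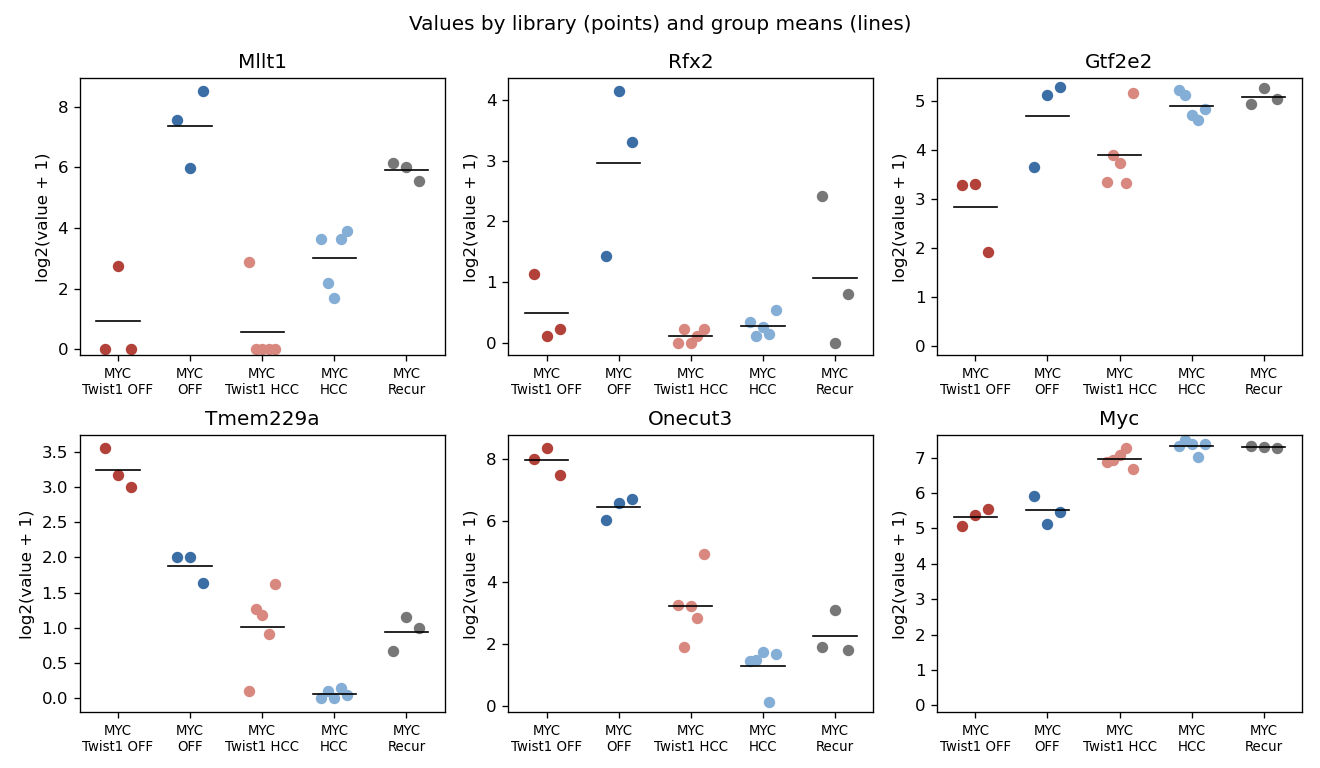
Values of 6 genes on the log2(value + 1) scale in each library (points) and the group mean (line), with both OFF groups at the left of each panel. Mllt1 is listed at 0 in 6 of the 8 Twist1-labelled libraries, and the other two, at 5.76 and 6.35, lie within the range of MYC_HCC. Rfx2, Gtf2e2, Tmem229a and Onecut3 did not pass the test between the OFF groups, and Myc overlaps between them.

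In the HCC contrast, which shares no library with the OFF contrast, all 15 genes of the higher side also had a positive log2 fold change, against 51.2% of all tested genes, and 11 of the 15 of the lower side a negative one. Of the 15 on each side 2 passed there, beside 5.82% of all tested genes. They were Onecut3 (adjusted p = 0.0153 by limma) and Tmem229a (0.0232) on the higher side, and Mllt1 and FBXO18 on the lower side. FBXO18 passed in the opposite direction and is described with the difference of contrasts.

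Gene groups known for MYC, TWIST1, liver and tumor biology were described by 34 lists, and cell types by 10 marker lists, of which 1 is of hepatocytes. No member of any list was called. Over the 34 lists 848 distinct genes were tested, of which 13 (1.53%) had an unadjusted p under 0.05, against 2.53% of all tested genes. The libraries did not overlap for 31 of them (3.66%, against 4.08%). Over all 44 lists the medians ran from -0.16 to 0.25 on the log2 scale, beside 0.06 over all genes. The median over all genes was -0.02, 0.00 and -0.01 under the 3 other scalings, and the median of 18 lists, all between 0.00 and 0.09, changed sign under at least 1 of them. The members named below are some of those of highest mean value, up to 3 a list, and some of those with an unadjusted p under 0.05 or no overlap, which were picked for their difference. That choice was made after no member was found to be called.

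No gene of the MYC network, its targets or the cell cycle passed the test. Of 11 tested genes of the MYC network none was called and the median was 0.05. Mxd3, a repressor partner of MAX, stood at 16.2, 17.7 and 23.4 in MYC_Twist1_OFF, against 12.9, 6.39 and 13.1 in MYC_OFF (log2 fold change 0.81, interval 0.03 to 1.59). The 37 tested targets of MYC and ribosome biogenesis had a median of -0.03. Gnl3, the nucleolar protein nucleostemin, stood at 389.5, 401 and 791 in MYC_Twist1_OFF, against 368, 222 and 335 in MYC_OFF (0.72, interval 0.06 to 1.38). Neither Mxd3 nor Gnl3 passed after adjustment. Npm1, a nucleolar chaperone, spread from 74.7 to 299.97 in MYC_Twist1_OFF and from 49.9 to 969 in MYC_OFF. Its ranges overlapped, and its interval of -2.66 to 2.28 bounds little. Replication genes (30 tested) had a median of 0.05 and mitosis genes (32 tested) of 0.07. Mcm7, a subunit of the replicative helicase, stood at 84.0, 97.1 and 109 in MYC_Twist1_OFF and at 101, 77.7 and 98.2 in MYC_OFF, and its interval of -0.37 to 0.51 leaves out a 2-fold difference. Cenpe, the kinetochore motor, stood at 5.68, 4.86 and 4.04 in MYC_Twist1_OFF, against 11.8, 5.63 and 9.47 in MYC_OFF (-0.72, interval -1.43 to -0.02). Inhibitors of the cell cycle and p53 targets had a median of 0.00, and apoptosis regulators of 0.12.

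Genes of the epithelial to mesenchymal transition did not pass either. The 22 tested regulators and mesenchymal genes had a median of -0.03, and the 26 tested junction genes of 0.13. Cdh2, the mesenchymal N-cadherin, stood at 28.4, 22.0 and 41.3 in MYC_Twist1_OFF and at 32.2, 49.6 and 44.2 in MYC_OFF (-0.47, interval -1.22 to 0.28). Cdh1, the epithelial E-cadherin, stood at 6.88, 7.65 and 7.37 in MYC_Twist1_OFF and at 11.6, 7.70 and 7.83 in MYC_OFF (-0.25, interval -1.54 to 1.03). The ranges of Cdh1 did not overlap, but 2 of the MYC_OFF values lay just above the MYC_Twist1_OFF values. F11r, the tight junction protein JAM-A, stood at 79.2, 49.6 and 57.3 in MYC_Twist1_OFF, against 48.5, 22.4 and 39.6 in MYC_OFF (0.78, interval -0.16 to 1.71). Among signalling lists, the median was 0.18 for 27 tested genes of TGF-beta and BMP, with 0.01 to 0.31 when 1 library was left out, and 0.17 for 19 of WNT and Notch. In them Smad3, the TGF-beta effector, stood at 15.3, 31.5 and 25.9 in MYC_Twist1_OFF and at 14.4, 18.9 and 10.5 in MYC_OFF (0.67, interval 0.03 to 1.31). Acvrl1, an endothelial receptor of BMP, stood at 16.9, 14.6 and 6.53 in MYC_Twist1_OFF and at 30.7, 17.8 and 32.2 in MYC_OFF. Matrix genes had a median of 0.07 and AP-1 and immediate early genes of 0.12.

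No gene of liver function passed the test. Medians were 0.06 for 29 mature hepatocyte genes, 0.00 for 18 liver transcription factors and 0.12 for 14 oncofetal and progenitor genes. Hnf4a, the master regulator of hepatocyte identity, stood at 121, 56.2 and 76.3 in MYC_Twist1_OFF and at 82.1, 63.5 and 87.9 in MYC_OFF (0.06, interval -0.54 to 0.66). Afp, the fetal protein alpha-fetoprotein, stood at 678, 402 and 571 in MYC_Twist1_OFF and at 796, 318 and 439 in MYC_OFF, but its interval ran from -2.89 to 3.21 and bounds little. Secretory lists had medians of 0.03 for complement and coagulation and 0.15 for the acute phase. Kng1, the precursor of bradykinin, stood at 300.3, 145 and 309.7 in MYC_Twist1_OFF, against 348, 346 and 544 in MYC_OFF (-0.76, interval -1.46 to -0.06).

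Metabolic lists lay close to 0. Medians were 0.07 for glycolysis, 0.14 for gluconeogenesis and glycogen and 0.00, just under 0, for fatty acid oxidation. They were 0.00 for lipid synthesis, 0.01 for the urea cycle and amino acid catabolism, -0.02 for cytochromes P450 and conjugation and 0.11 for bile acid genes. Aldoa, a glycolytic aldolase, stood at 75.9, 66.4 and 77.2 in MYC_Twist1_OFF, against 134, 81.7 and 97.6 in MYC_OFF (-0.48, interval -1.03 to 0.07). Acly, which makes cytosolic acetyl-CoA, stood at 115, 196 and 417 in MYC_Twist1_OFF and at 51.8, 136 and 223 in MYC_OFF, a wide and overlapping spread. Cyp2d22, a cytochrome P450, stood at 16.4, 9.53 and 9.41 in MYC_Twist1_OFF, against 4.59, 3.21 and 7.35 in MYC_OFF (1.09, interval -0.18 to 2.37). Nags, which makes the activator of the urea cycle, stood at 6.12, 4.84 and 3.71 in MYC_Twist1_OFF and at 3.80, 3.24 and 2.15 in MYC_OFF.

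Medians of housekeeping complexes were -0.12 for 35 cytosolic ribosomal protein genes, -0.10 for 36 proteasome genes, -0.06 for 37 splicing genes and -0.03 for 34 genes of oxidative phosphorylation. Their sign rests on single libraries: the ribosomal median ran from -0.32 without MYC_OFF 2 to 0.20 without MYC_OFF 1 and was 0.18 with array weights, and the proteasome median was 0.02 without MYC_Twist1_OFF 2 and 0.05 with array weights. Uqcrfs1, the Rieske subunit of complex III, stood at 124, 48.2 and 121 in MYC_Twist1_OFF, against 127, 298 and 128 in MYC_OFF. In it 2 libraries of each group were nearly equal, and the difference came from the second library of each. Sf3a1, a subunit of the splicing factor SF3A, stood at 2.04, 1.33 and 2.31 in MYC_Twist1_OFF, against 5.94, 3.41 and 3.98 in MYC_OFF (-0.90, interval -1.53 to -0.27).

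Of 44 lists, the 1 whose summed values did not overlap was that of heat shock and unfolded protein genes. Chance gives no overlap for about 10% with 3 libraries against 3, so 1 of 44 is no excess. The median of this list was -0.03. Its summed value was 14052, 16339 and 13462 in MYC_Twist1_OFF, against 11384, 10426 and 13234 in MYC_OFF. A large share of that sum was Hsp90aa1, the inducible cytosolic HSP90, at 7580, 11324 and 7545 in MYC_Twist1_OFF, against 4992, 5510 and 5842 in MYC_OFF. Every MYC_Twist1_OFF library was above every MYC_OFF library, but the log2 fold change of 0.67 had an interval of -0.21 to 1.55 and did not pass. Autophagy and lysosome genes had a median of 0.11.

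**Figure D4:**
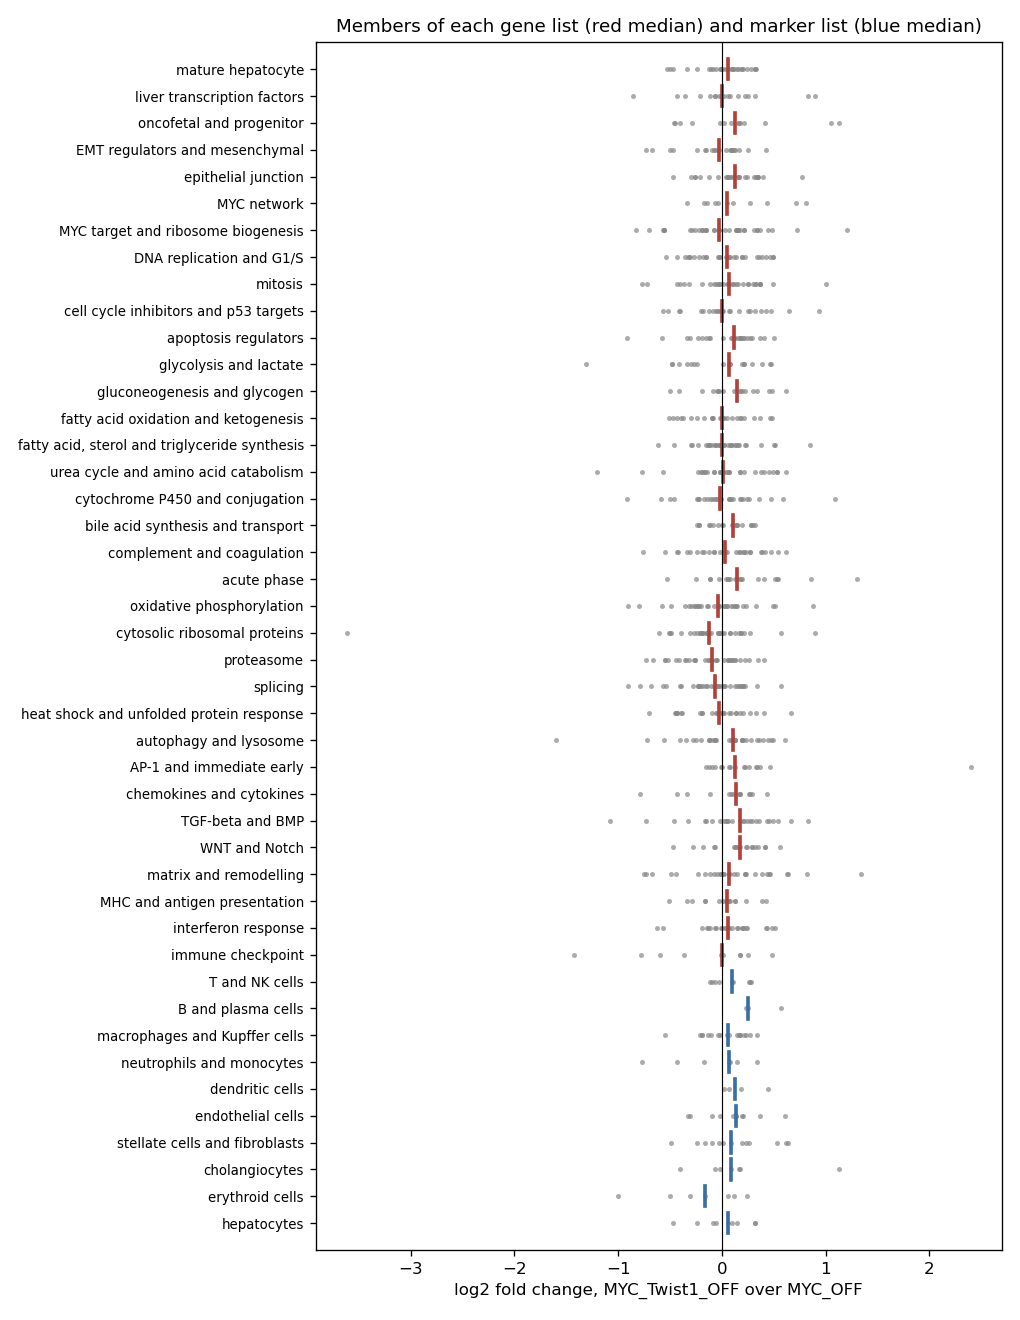
Log2 fold change of MYC_Twist1_OFF over MYC_OFF for the tested members of each list (grey points), with the list median in red for gene lists and in blue for cell type marker lists. The medians lie between -0.16 and 0.25. The outlying point at -3.62 is Rpl19 and the one at 2.40 is Fosl1, both set by a single library.

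No marker of another cell type passed the test. In bulk tumors fewer cells of a type and less RNA per cell cannot be told apart. Over the 10 marker lists, hepatocyte markers included, 88 of 168 genes were tested. Of these, 1 (1.14%) had an unadjusted p under 0.05, against 2.53% of all tested genes, and 3 (3.41%) did not overlap, against 4.08%. The sums below run over all deposited markers of a list, tested or not. The summed value of 20 macrophage and Kupffer cell markers, of which 18 were tested, was 734, 538 and 1083 in MYC_Twist1_OFF and 852, 738 and 819.6 in MYC_OFF. Lyz2, the macrophage lysozyme, stood at 263, 143 and 671 in MYC_Twist1_OFF and at 341, 349.9 and 328 in MYC_OFF. T and NK cell markers (24, of which 9 tested) summed to 32.7, 30.5 and 25.7 in MYC_Twist1_OFF and to 52.5, 17.9 and 23.3 in MYC_OFF. Neutrophil and monocyte markers (15, of which 7 tested) summed to 168, 74.4 and 93.8 in MYC_Twist1_OFF and to 285, 175 and 78.5 in MYC_OFF. MYC_OFF 1 had the highest sum of T and NK and of neutrophil markers. Stellate cell and fibroblast markers (20, of which 13 tested) summed to 64.9 to 73.0 in MYC_Twist1_OFF and to 50.8 to 84.0 in MYC_OFF. Endothelial markers (19, of which 11 tested) summed to 119 to 212 in MYC_Twist1_OFF and to 113 to 184 in MYC_OFF. B and plasma cell markers had a median of 0.25 from 3 tested members, and one of them, Sdc1, which hepatocytes also express, stood at 15.8, 15.8 and 19.5 in MYC_Twist1_OFF and 13.9, 13.4 and 14.8 in MYC_OFF. Medians were 0.13 for dendritic cells, 0.09 for cholangiocytes and -0.16 for erythroid cells. Between 0 and 2 genes of each marker list were at 0 in all 6 libraries.

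Among immune genes, Tigit, an inhibitory receptor of T and NK cells, stood at 0.37, 2.95 and 0.28 in MYC_Twist1_OFF and at 6.87, 1.3 and 6.4 in MYC_OFF (-1.42, interval -2.37 to -0.48). The ranges overlapped through MYC_Twist1_OFF 2, and the adjusted p by limma was above 0.950. Medians were 0.00 for immune checkpoint genes, 0.05 for MHC and antigen presentation, 0.06 for the interferon response and 0.14 for chemokines and cytokines. Bst2, an interferon-induced membrane protein, stood at 59.3, 86.4 and 53.6 in MYC_Twist1_OFF and at 17.5, 36.2 and 358 in MYC_OFF, the last from MYC_OFF 3.

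The difference between Twist1-labelled and MYC-labelled tumors was then set beside the same difference in the HCC groups, where 399 genes rose (3.36%) and 292 fell (2.46%) in MYC_Twist1_HCC, 5.82% of those tested, and 23.7% had an unadjusted p under 0.05. Of those 399, 67.9% had a positive log2 fold change in the OFF contrast, with a median of 0.13. Of the 292, 74.3% had a negative one, with a median of -0.14. Of all tested genes 58.6% were positive, with a median of 0.06. The medians of the same genes in the HCC contrast were 1.34 and -0.91, but these genes were chosen for passing there, so the sizes of the 2 medians cannot be compared. For 164 of the 399 and 206 of the 292, the interval of the OFF difference lay within 1 of 0 on the log2 scale. Over all 11866 tested genes this held for 6943 (58.5%), so the first share was lower and the second higher.

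The difference of the 2 contrasts passed for 9 genes (0.0758% of those tested), and 903 (7.61%) had an unadjusted p under 0.05. In all 9 the OFF contrast lay below the HCC contrast, by 1.71 to 5.02 on the log2 scale, with adjusted p by limma of 0.0371 to 0.0499. All 9 rose in MYC_Twist1_HCC, by 1.20 to 4.76, and none was called in the OFF contrast, where their log2 fold changes ran from -2.12 to 0.58. OFF and HCC libraries also differ in deposit, which cannot be told apart from the label here, although each contrast lies within 1 deposit. The count was 0 without any 1 of the 3 MYC_Twist1_OFF libraries, without MYC_HCC 2 or 4 and without MYC_Twist1_HCC 1 or 5, and 31 without MYC_OFF 1. It was 7 without MYC_OFF 3 (1 of the same 9), 5 without MYC_OFF 2 or MYC_HCC 3, and 1 to 3 without MYC_HCC 1 or 5 or MYC_Twist1_HCC 2 or 3.

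Several of these genes stood high in both OFF groups. Rsl1, on chromosome 13, is a zinc-finger repressor known in mice for holding down male-specific liver genes. It stood at 766, 1327 and 1572 in MYC_Twist1_OFF and at 778, 559.7 and 1108 in MYC_OFF, against 22.9 to 132 in MYC_Twist1_HCC and 0.82 to 2.29 in MYC_HCC. Lpar2, a receptor of lysophosphatidic acid on chromosome 8, stood at 85.1, 50.9 and 50.3 in MYC_Twist1_OFF and at 59.8, 62.0 and 52.7 in MYC_OFF, against 5.52 to 23.6 in MYC_Twist1_HCC and 0.32 to 1.27 in MYC_HCC. For both genes the OFF groups overlapped while the HCC groups did not. Phkg1, the catalytic subunit of muscle phosphorylase kinase, stood at 77.2, 22.4 and 54.1 in MYC_Twist1_OFF and at 66.9, 128 and 122 in MYC_OFF, against 7.06 to 32.1 in MYC_Twist1_HCC and 0.60 to 2.03 in MYC_HCC. Uqcrq, a subunit of respiratory complex III, stood at 1263, 636 and 1440 in MYC_Twist1_OFF and at 1167, 2017 and 1558 in MYC_OFF, against 598 to 996 in MYC_Twist1_HCC and 223 to 352 in MYC_HCC.

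Of the 9, 4 did not overlap between the OFF groups, each lower in MYC_Twist1_OFF without passing there, beside 2.01% of all tested genes. A lower OFF value favours a call for the difference, so nothing is read from this count. FBXO18, a DNA helicase with an F-box, stood at 3.34, 1.94 and 4.21 in MYC_Twist1_OFF, against 13.9, 6.05 and 50.4 in MYC_OFF, and at 32.4 to 95.1 in MYC_Twist1_HCC, against 0.65 to 12.6 in MYC_HCC. Its groups were thus ordered in opposite ways in the OFF and HCC tumors (log2 fold change -2.12 in the OFF contrast and 2.90 in the HCC contrast). Abracl, a small actin-associated protein, stood at 0.53, 0.33 and 0.39 in MYC_Twist1_OFF, against 1.21, 1.05 and 3.57 in MYC_OFF, and at 29.6 to 45.7 in MYC_Twist1_HCC, against 12.7 to 17.4 in MYC_HCC. Abracl was under 1 in every MYC_Twist1_OFF library and met the required level only through MYC_OFF, so its lack of overlap was fixed by that filter. Chmp4c, a subunit of the ESCRT-III membrane scission complex, stood at 50.8, 43.1 and 40.8 in MYC_Twist1_OFF, against 76.8, 54.5 and 77.9 in MYC_OFF. In the HCC groups it was at 9.75 to 12.3 in MYC_Twist1_HCC, against 2.24 to 5.55 in MYC_HCC. Fam160a2, a component of a dynein adaptor complex on endosomes, stood at 7.02, 7.71 and 7.21 in MYC_Twist1_OFF, against 9.86, 11.4 and 11.2 in MYC_OFF, and at 3.39 to 6.99 in MYC_Twist1_HCC, against 1.04 to 2.06 in MYC_HCC. Gm12504 stood at 28.5, 12.6 and 44.5 in MYC_Twist1_OFF and at 18.9, 59 and 30.5 in MYC_OFF, against 37.1 to 48.4 in MYC_Twist1_HCC and 0.51 to 8.10 in MYC_HCC. It is annotated as a transcribed processed pseudogene, and reads of its parent gene could be counted there.

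**Figure D5:**
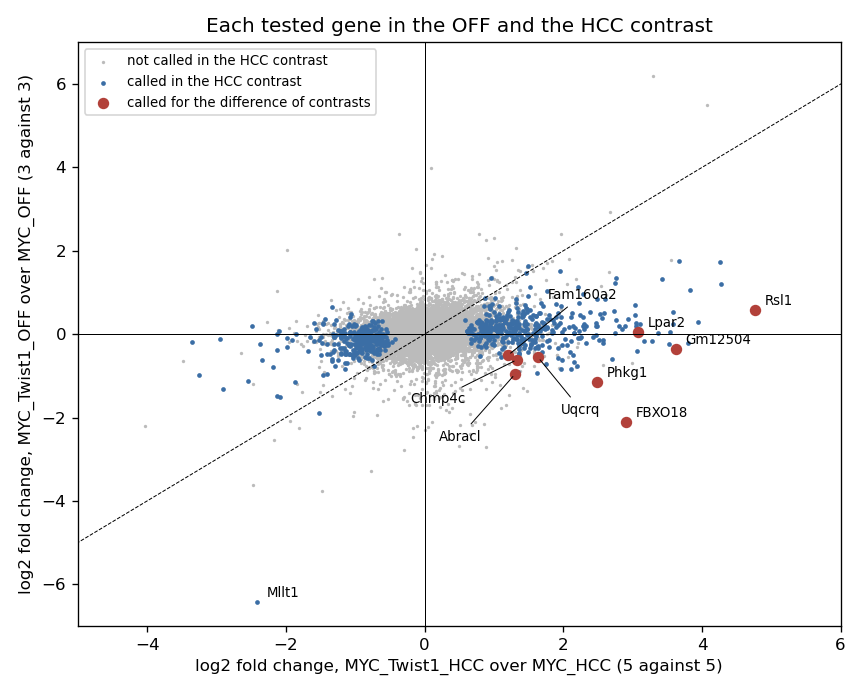
Log2 fold change of each tested gene between MYC_Twist1_OFF and MYC_OFF (vertical axis) and between MYC_Twist1_HCC and MYC_HCC (horizontal axis), with the dashed line of equal values. Genes called in the HCC contrast (blue) stand away from 0 on the horizontal axis, since they were chosen there. The 9 genes called for the difference (red) lie to the lower right, and Mllt1 is the single gene called in both contrasts.

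The genes with the largest called HCC differences show how wide the OFF values were. Gcnt1, a glycosyltransferase of O-glycans, rose in MYC_Twist1_HCC by 4.26 on the log2 scale and stood at 140.5, 2104 and 217 in MYC_Twist1_OFF and at 136, 81.1 and 159.7 in MYC_OFF. Robo1, a receptor of SLIT proteins, rose by 3.95 there and stood at 202, 1494 and 393 in MYC_Twist1_OFF and at 327, 550.1 and 355 in MYC_OFF. In 4 of the 6 genes with the largest HCC increases, MYC_Twist1_OFF 2 held the highest of the 6 OFF values. On the other side, Ccndbp1, a binding partner of cyclin D1, fell by 2.91 in MYC_Twist1_HCC and stood at 0.83, 0.69 and 1.93 in MYC_Twist1_OFF, against 4.54, 7.15 and 2.08 in MYC_OFF. Its OFF log2 fold change was -1.31 (interval -2.01 to -0.62) with an adjusted p by limma above 0.950, and it was called without MYC_OFF 3. Sap30, a subunit of the SIN3 deacetylase complex, fell by 3.25 in MYC_Twist1_HCC and stood at 3.02, 1.28 and 1.02 in MYC_Twist1_OFF and at 6.75, 5.49 and 1.78 in MYC_OFF, with ranges that overlapped.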

How the data were processed

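RNA was sequenced from mouse liver tumors. The deposited table holds 1 normalized signal per gene and library, to 2 decimals; the authors' formula is in no source used here. The submitters' processing notes name Trimmomatic, STAR, Picard, featureCounts, DESeq2 and mm10. Library sums differ, the values are not whole reads, and depth is unknown, so no counting interval is given. Of 19511 rows, 25 with a bare number as symbol were left out, and 18141 symbols matched mouse gene names.

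On log2(value + 1), limma 3.58.1 (R 4.3.3; moderated, with a mean-variance trend) compared the groups, a scale that understates changes of low genes. Two-sided p-values were adjusted over 11866 genes by Benjamini and Hochberg, called under 0.05. One fit of 5 groups over 19 libraries (14 residual degrees of freedom) was used because the residual spread of the OFF groups was 1.14 times that of the others, under a limit of 1.25. Intervals are 95% intervals of that fit. No 2 libraries were identical. The test was also run on simulated data with independent libraries and the same spread in every group. These data need not meet either setting, so nothing is read from that run. Named genes were the 15 largest differences each way among called genes without overlap, or, with fewer than 10 such genes, among all genes without overlap, with a mean of at least 5 and no predicted or clone symbol. Other scalings, pseudocounts, filters, fits and left-out libraries were tried. The genes, lists and rules were chosen with earlier results of these data known.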

Additional observations from a re-analysis of the deposited data

Results flagged for a closer look

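The difference between the OFF and the HCC contrast passed the test for 9 genes, each with the OFF contrast lower (limma, difference of the log2 fold changes). It was -2.26 for Abracl, -1.95 for Chmp4c, -4.18 for Rsl1, -3.02 for Lpar2, -3.97 for Gm12504, -5.02 for FBXO18, -1.71 for Fam160a2, -3.63 for Phkg1 and -2.19 for Uqcrq. Each is 1 of 11866 genes tested, and the calls depend on single libraries.

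Single HCC libraries stood apart from the other 4 of their group in 4 of 24 groups of 5 examined. The rule is set to flag about 1 in 20 groups of normally distributed values. These values were not on a log scale and some were at 0, so that rate need not hold here. Mllt1 was at 6.35 in MYC_Twist1_HCC 1 and at 0 in the others, where any value above 0 would have been flagged. FBXO18 was at 95.1 in MYC_Twist1_HCC 4 and at 32.4 to 45.5 in the others. Uqcrq was at 598 in that library and at 892 to 996 in the others. Twist1 was at 0.27 in MYC_HCC 4 and at 0.01 to 0.05 in the others.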

How the results depend on the processing

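The number of genes called between the OFF groups was 1 with the 3 other scalings, a filter of at least 5, no trend, or a call that also asks for libraries that do not overlap. It was 0 with a pseudocount of 0.1, the 2 groups alone or array weights, 2 with a pseudocount of 5 (1 higher, 1 lower) and 3 with no filter (2 higher, 1 lower). Leaving out 1 library gave 0 to 17 (0 to 2 higher, 0 to 15 lower). Mllt1 kept its direction throughout, with log2 fold changes of -8.70 to -4.70. It lost its call under a pseudocount of 0.1 (adjusted p by limma 0.224), array weights (0.275) and without MYC_Twist1_OFF 3 (0.0871). The call was also lost with the 2 groups alone, both without a block (0.654) and with the replicate block (0.0834). The log2 fold change of Myc reversed with array weights (0.0264) and without MYC_OFF 1 (0.0341, in a range from -0.37 without MYC_OFF 2). A pairing of the libraries by replicate number was neither shown nor excluded, and the main fit used no block. Same-numbered deviations correlated at 0.32, -0.18 and 0.27, and 4 of 6 libraries correlated best with their own number. With the replicate block in the 2 groups alone 1 gene was higher and 0 were lower (1 called, B020004C17Rik). For the difference of contrasts, a replicate block within each deposit over all 19 libraries gave 12 genes, 4 of them among the 9. That count was 8 or 9 under other scalings (7 of the 9 each time), 5 with a pseudocount of 5, 4 with no filter and 0 to 31 without 1 library. Where 1 library was left out, the remaining libraries of its group were assumed to vary like the others. Of 748 list medians recomputed, 16 in 7 lists moved by more than the spread between libraries. The causes were not tested. Depth being unknown, differences of low genes are limited by the pseudocount.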
